A study of Mus musculus with 18 samples.

Results

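The genes described here were 37 lysosomal genes of mouse bone marrow-derived macrophages (BMDMs), chosen by symbol from the 50600 gene IDs of a count table. They were 8 cysteine proteases, 3 other proteases, 8 glycosidases and lipid hydrolases, 4 cofactors and lipid carriers, 5 membrane proteins, 6 subunits of the vacuolar proton pump (V-ATPase) and 3 MiT transcription factors. Each symbol matched 1 gene ID, and all 37 passed the filter on low counts that left 15663 genes for testing. Bone marrow of WT or IRF5 KO animals was cultured with GM-CSF for 8 days. In each genotype there were 3 libraries from unstimulated cells, 3 from cells given DMSO, the vehicle, for 1 h and then 100 ng/ml LPS for 2 h, and 3 from cells given 3.5 μM defactinib, an inhibitor of the kinases PYK2 and FAK, for 1 h before the same LPS. The unstimulated libraries are labelled DMSO while their column names mark them as untreated, so whether they received vehicle cannot be read from the sources. The series describes the 3 libraries of a condition as biological replicates, and the sources do not say which animals they came from, so p-values measure the spread between these libraries. The paper's methods list purchased male C57BL/6J mice and their age, without saying that the WT marrow came from them. For the IRF5 KO mice the sources give no strain, age or sex.

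Lysosomes are acidic organelles in which macrophages degrade what they engulf and recycle their own components. The V-ATPase pumps protons into the lumen, soluble hydrolases digest proteins, sugars and lipids there, and heavily glycosylated membrane proteins line the organelle. TFEB, TFE3 and MITF of the MiT family bind E-box sequences in promoters of lysosomal genes, the coordinated lysosomal expression and regulation (CLEAR) element, and are held in the cytoplasm by mTORC1 at the lysosomal surface, so that their activity is set largely after transcription. IRF5 is a transcription factor that drives inflammatory gene expression in macrophages stimulated through Toll-like receptors such as the LPS receptor.

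Expression is given as CPM, a gene's counts relative to the library total after scaling for composition by the trimmed mean of M values (TMM), and as TPM, in which counts are also divided by exon length, wherever genes are compared with each other. Read pairs counted on genes ranged from 39282181 to 61949143 per library, with a median of 45317217. A gene is called where edgeR's quasi-likelihood test gave an adjusted p below 0.05 and a change of more than 2-fold, and is said to have risen or fallen where the adjusted p alone was below 0.05. All 12 macrophage markers on the list checked were present in every library, and their summed level was 18104 to 21236 TPM in unstimulated WT, 15235 to 15498 with LPS and DMSO in WT, 15921 to 22122 when defactinib was added there, 23180 to 31100 in unstimulated IRF5 KO, 16638 to 18708 in IRF5 KO LPS DMSO and 24454 to 27268 in IRF5 KO LPS defactinib. Summed markers of T, B and NK cells reached at most 1.33 TPM, and those of mast cells and basophils were at 0.839 to 3.996 TPM in WT and at 12.95 to 28.79 TPM in IRF5 KO. Of that list of 10, the transcription factor gene Gata2, which progenitor cells also express, made up most of the sum in IRF5 KO (9.41 to 25.6 TPM, against 0.114 to 1.78 TPM in WT), Cpa3 was at or below 1.38 TPM, Fcer1a and Cma1 at or below 0.103 TPM and Mcpt4 at 0 in every library. The dendritic cell list, which holds the LPS-responsive chemokine gene Ccl22, was at 3436 to 3487 TPM in unstimulated WT, at 11059 to 12585 after LPS with DMSO, and at 7606 to 10915 after LPS with defactinib, and in IRF5 KO at 3316 to 4555, 5169 to 7910 and 3885 to 4154 TPM in the same order. The neutrophil list was at 229 to 275, 354 to 681 and 384 to 459 TPM in these groups of WT and at 297 to 342, 424 to 647 and 417 to 525 TPM in those of IRF5 KO, and 6 of its 8 tested markers were called higher with LPS in WT. In bulk RNA, fewer cells of a type and less RNA per cell cannot be told apart, and the part of cell makeup in the results below was not tested. Irf5 itself was counted at 587 to 650 CPM in unstimulated WT and at 335 to 397 CPM in unstimulated IRF5 KO. Its log2 difference was 0.75 ± 0.16 (SE, n = 3 libraries per group, edgeR adjusted p = 0.00492) before LPS, 0.16 ± 0.16 (adjusted p = 0.428) after LPS and -0.42 ± 0.16 (adjusted p = 0.0545) with LPS and defactinib, where it was at 213 to 379 CPM in WT and 353 to 392 CPM in IRF5 KO, so gene-level counts did not check the deletion.

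Replicate 3 of IRF5 KO LPS DMSO stood apart from replicates 1 and 2. The chi-square per gene was 2.33 between replicates 1 and 2, but 441 and 426 between each of them and replicate 3, against 3.82 to 183 within the other groups. Replicate 3 was the lowest of the 3 libraries for 29 of the 37 lysosomal genes and the highest for 8. It lay a median of 0.433 log2 units from the mean of replicates 1 and 2, which differed from each other by a median of 0.0126. Replicates 1 and 2 lay nearer the mean of IRF5 KO LPS defactinib than replicate 3 did for 33 of the 37 genes, and replicate 3 lay nearer the unstimulated IRF5 KO mean for 24. These counts were not made over all tested genes, so whether they are particular to the lysosomal genes was not tested. Values without replicate 3 are given beside the main results that rest on this group. Where replicates 1 and 2 are both left out, the group is 1 library, assumed to vary like the other groups. The non-coding RNA Gm26917 also divided these libraries: it was at 26817 and 26679 CPM in replicates 1 and 2 but at 113 CPM in replicate 3, at 22252 to 41939 CPM in WT LPS defactinib, at 11392 to 18571 CPM in IRF5 KO LPS defactinib and at 47.0 to 143 CPM in all other libraries. Malat1, a nuclear RNA, was at 713 to 985 CPM in WT LPS defactinib and at 176 to 267 CPM in WT LPS DMSO, while in IRF5 KO it was at 505, 525 and 118 CPM in LPS DMSO replicates 1, 2 and 3 and at 317 to 408 CPM in LPS defactinib. The part of this RNA makeup in the lysosomal genes' values was not tested.

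The promoters of 6 lysosomal genes held the core of the CLEAR element, the letters TCACGTGA, which read the same on both strands. Promoters of 300 bases, from 250 before to 50 after the start site in RefSeq on GRCm38.p6, were at hand for 30 of the 37 genes. The core was found in 6 of these 30 genes (20%), against 1.12% of the 27025 genes with such a promoter. The shorter E-box CACGTG, which the core contains, was found in 10 of 30 (33.3%) against 8.09%, and the core with a further G before it and C after it in 0 of 30 against 0.37%. A match describes letters only and is not a shown binding site. The 30 bases around each match are printed 5′ to 3′ on the gene's strand, with the core in capitals, because these are the genes whose promoters hold the letters that the MiT factors are known to bind.
Atp6v0d1, chr8:105566050-105566079, minus strand: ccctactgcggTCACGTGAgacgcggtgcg
Atp6v1a, chr16:44139373-44139402, minus strand: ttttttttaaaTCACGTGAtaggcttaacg
Ctsa upstream match, chr2:164833749-164833778, plus strand: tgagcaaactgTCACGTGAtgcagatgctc
Ctsa downstream match, chr2:164833766-164833795, plus strand: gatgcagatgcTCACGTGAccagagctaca
Ctsd, chr7:142387908-142387937, minus strand: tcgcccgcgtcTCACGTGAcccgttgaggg
Gla near match, chrX:134601182-134601211, minus strand: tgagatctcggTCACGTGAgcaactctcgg
Gla far match, chrX:134601215-134601244, minus strand: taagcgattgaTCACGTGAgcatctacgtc
Mcoln1, chr8:3500462-3500491, plus strand: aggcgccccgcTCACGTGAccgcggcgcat

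The core began 4 bases before the start site in Atp6v0d1, 46 before it in Mcoln1, 99 before it in Ctsd, 132 before it in Atp6v1a and 195 and 228 before it in Gla, while Ctsa had 1 match starting 13 bases before and 1 starting at position 5, counted with the annotated start as position 1. A pair of GAAA letters with 2 free bases between them, searched on both strands as a core of elements bound by IRF proteins, was found in 2 of the 30 genes (6.67%), against 3.99% of all genes. These 2 windows are shown because the genes carry the cysteine protease and the membrane protein with the highest levels in their groups, and in the second the letters lie on the opposite strand.
Ctss, chr3:95526755-95526784, plus strand: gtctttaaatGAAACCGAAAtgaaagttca
Lamp1, chr8:13159016-13159045, plus strand: cacaacctacTTTCCATTTCgggacactcg

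The lysosomal genes were among the more strongly expressed genes of these cells. Their median level was 8.38 on the log2 CPM scale, against 3.37 for all tested genes. Psap, which encodes the precursor of the saposins that present lipids to hydrolases, had the highest level, at a mean of 11280 TPM and between 8405 and 15157 TPM over the 18 libraries. It was followed by the cysteine proteases Ctss (3976 TPM) and Ctsz (3675 TPM), the aspartic protease Ctsd (1823 TPM) and Ctsb (1373 TPM). The ranges of Ctss, 2457 to 6543 TPM, and Ctsz, 2921 to 4988 TPM, overlapped, so their order was not fixed across libraries. Lamp1, a main glycoprotein of the lysosomal membrane, was at 1062 TPM, and Lipa, the acid lipase that frees cholesterol and fatty acids, at 843 TPM. Of the V-ATPase subunits, Atp6v0d1 had the highest level (369 TPM). The lowest levels were those of Mcoln1 (10.7 TPM), the calcium channel of the lysosomal membrane, and Tfeb (7.71 TPM). Together the 37 genes took 3.73% ± 0.115 (SD, n = 3) of counted pairs in unstimulated WT, 2.75% ± 0.0662 in WT LPS DMSO and 4.09% ± 0.112 in WT LPS defactinib. In IRF5 KO these shares were 3.28% ± 0.271, 2.97% ± 0.293 and 3.57% ± 0.0349. These are shares of all counts, so they also move with what other genes take.

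**Figure D1:**
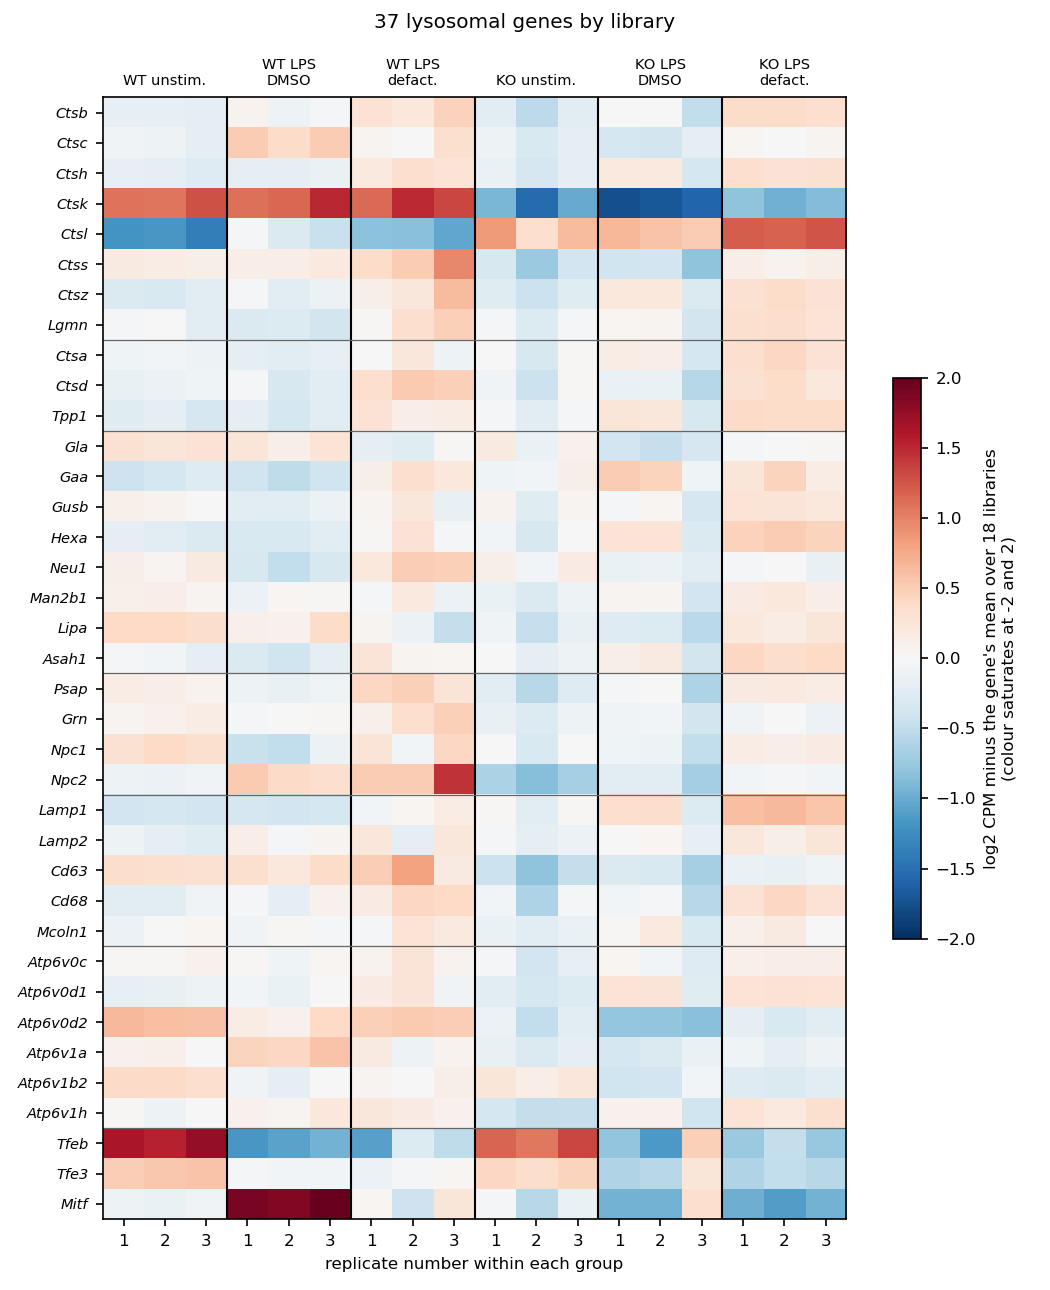
Log2 CPM of the 37 lysosomal genes (rows, in their groups) in the 18 libraries (columns, 3 per group), each minus the gene's mean over all libraries, with the colour scale ending at -2 and 2. Most rows vary little, while Tfeb, Mitf, Ctsk and Ctsl differ between groups, and replicate 3 of IRF5 KO LPS DMSO is paler or bluer than replicates 1 and 2 for 29 of the 37 genes.

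The first comparison asked what 2 h of LPS did to the lysosomal genes of WT BMDMs. LPS changed 2 of the 37 genes more than 2-fold, both of them MiT factors and in opposite directions: Tfeb fell and Mitf rose. These 2 calls compare with 21.3% of all tested genes called in this comparison. Counting the adjusted p alone, 5 lysosomal genes rose (20.6% of all genes did) and 6 fell (21.2%), and the median log2 fold change was -0.05.

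Tfeb (chr17:47737030-47792419, plus strand, mm10 as in the table) was at 38.5, 36.3 and 41.9 CPM in unstimulated WT and at 5.57, 5.96 and 6.48 CPM in WT LPS DMSO. All 3 stimulated libraries lay far below all 3 unstimulated ones. The fall was 6.48-fold, a log2 fold change of -2.70 ± 0.32 (SE, n = 3 per group, edgeR adjusted p = 7.06e-06). Mitf (chr6:97807052-98021349, plus strand) went the other way, from 92.2, 89.6 and 93.6 CPM to 366, 355 and 403 CPM. No stimulated library overlapped an unstimulated one, and the rise was 4.08-fold (log2 2.03 ± 0.28, edgeR adjusted p = 2.85e-05). Tfe3 (chrX:7762560-7775202, plus strand) was at 117, 120 and 124 CPM before LPS and at 80.8, 80.5 and 80.4 CPM after it. Its groups did not overlap either, and it fell by 0.58 ± 0.16 on the log2 scale (edgeR adjusted p = 0.00786), under the 2-fold limit. The counts sum all transcripts of a gene, so isoforms of these factors were not separated.

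Per length, Mitf had the most abundant transcript of these 3 MiT factors in WT before and after LPS, and its lead over the other 2 was wider after it. In unstimulated WT, Mitf made up 42.1 to 43.4% of the summed TPM of the 3 factors, Tfe3 36.8 to 38.4% and Tfeb 18.9 to 20.6%. In WT LPS DMSO, Mitf made up 85.5 to 86.9% and Tfeb 1.43 to 1.57%. The summed level of the 3 was 89.4 to 97.9 TPM before and 143 to 156 TPM after LPS.

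**Figure D2:**
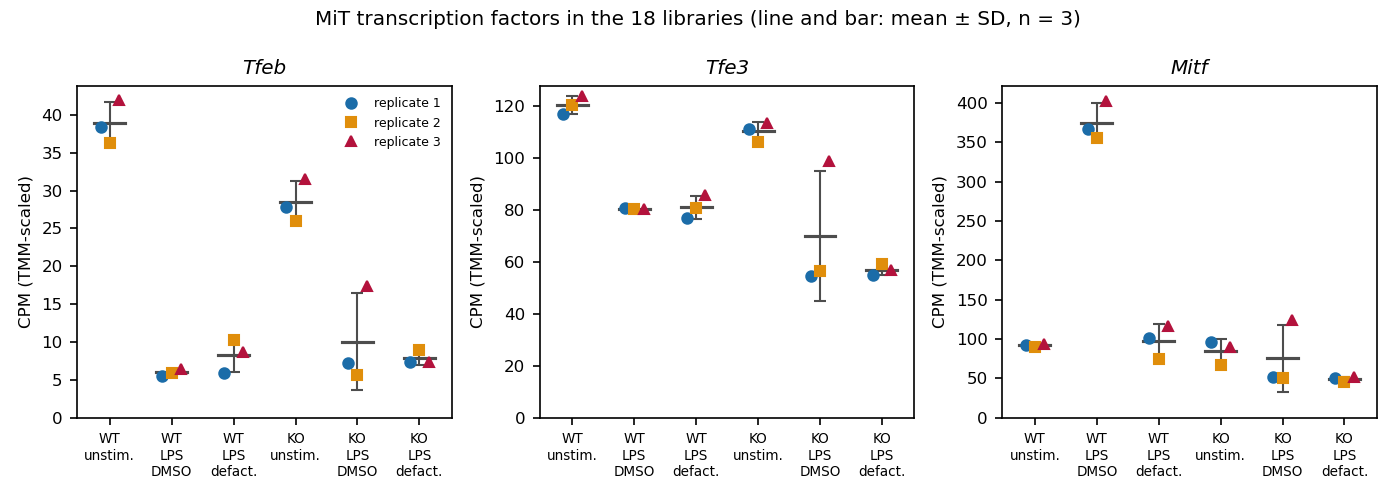
CPM of the 3 MiT factors in every library, by group, on linear axes from 0. Points are libraries coloured by replicate number, and lines with bars give the mean ± SD of 3 libraries. Mitf lies at 355 to 403 CPM in WT LPS DMSO and at or below 125 CPM in every other library, and Tfeb is highest in the unstimulated groups.

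Under TMM scaling, none of the degradative genes was called with LPS in WT. Of the 8 cysteine proteases, 2 rose and none fell. Ctsl, an endopeptidase that also trims the MHC class II invariant chain in some cells, was at 148, 151 and 130 CPM in unstimulated WT. After LPS it was at 333, 276 and 248 CPM. The groups did not overlap, and the log2 fold change of 1.00 ± 0.13 (edgeR adjusted p = 1.34e-05) fell just under the 2-fold limit. Over the alternatives it ran from 0.62 with library size alone to 1.09, past the limit, without WT LPS DMSO replicate 3. Ctsc, the dipeptidase that activates granule serine proteases, rose by 0.59 ± 0.09 on the log2 scale (adjusted p = 0.000106).

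All 8 glycosidases and lipid hydrolases had log2 fold changes below 0, between -0.49 and -0.05, but only Neu1, the lysosomal sialidase, passed the test (-0.49 ± 0.09, edgeR adjusted p = 0.000476). Among the carriers, Npc1 and Npc2, which act in succession to export cholesterol from lysosomes, moved apart. Npc1, the membrane protein, was at 179, 190 and 181 CPM before and 107, 103 and 133 CPM after LPS, and fell by 0.68 ± 0.14 on the log2 scale (adjusted p = 0.000799). Npc2, the soluble carrier, was at 753, 743 and 762 CPM before and 1157, 1045 and 1010 CPM after LPS, a log2 rise of 0.51 ± 0.20 (adjusted p = 0.047). Their groups did not overlap, although the rise of Npc2 lost its adjusted p under most alternatives (up to 0.547).

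Of the V-ATPase subunits, Atp6v1a, the catalytic subunit, rose (0.41 ± 0.09, edgeR adjusted p = 0.00122), whereas its partner Atp6v1b2 fell (-0.46 ± 0.09, adjusted p = 0.000626), as did Atp6v0d2 (-0.40 ± 0.10, adjusted p = 0.00332), a membrane-sector subunit with a high level in osteoclasts. None of the 3 other proteases and none of the 5 membrane proteins passed the test, with log2 fold changes between -0.10 and 0.22. Of the genes with a CLEAR core in the promoter, Atp6v1a rose under TMM scaling but not with library size alone (0.03, adjusted p = 0.834), and Ctsa (-0.10), Ctsd (-0.06), Gla (-0.07), Atp6v0d1 (0.08) and Mcoln1 (-0.00) did not pass the test.

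Under TMM scaling, none of the members with the highest level of each degradative, membrane or pump group passed the test with LPS in WT, while the share of all counts taken by the 37 genes was lower after LPS, as given above. Psap was at 14573, 14319 and 13836 CPM in unstimulated WT and at 12264, 11805 and 12300 CPM after LPS, a difference of -0.23 ± 0.13 on the log2 scale (edgeR adjusted p = 0.178). Ctss, the main class II processing protease of antigen-presenting cells, was at 2550, 2491 and 2451 CPM before and 2463, 2455 and 2563 CPM after LPS. Its libraries overlapped. Ctsd was at 1629, 1672 and 1718 CPM before and 1781, 1452 and 1574 CPM after. Lamp1 was at 919, 940 and 918 CPM before and 947, 915 and 934 CPM after, and Atp6v0d1 at 253, 256 and 264 CPM before and 275, 258 and 282 CPM after. For both, the groups overlapped. Lipa was at 1378, 1376 and 1322 CPM before and 1111, 1102 and 1340 CPM after LPS, with 1 stimulated library inside the unstimulated range (log2 -0.20 ± 0.13, adjusted p = 0.264).

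Beyond the 37 genes, more lysosomal transporters than hydrolases were called after LPS in WT. Of 39 other lysosomal hydrolases, 1 was called higher, the ribonuclease gene Rnaset2b at a log2 fold change of 2.51, and 2 lower, Sgsh, a heparan sulfamidase, at -2.20 and Pla2g15, a phospholipase, at -2.11. Of 32 other lysosomal membrane proteins and transporters, 1 was called higher (Cln3, 2.38) and 8 lower, led by the amino acid exporter Slc36a1 (-2.59), the cystine exporter Ctns (-1.60) and the peptide transporter Abcb9 (-1.36). Of 13 tested of 16 other V-ATPase genes, Atp6v0a2 was called lower (-1.28), but 4 of them rose and 1 fell by edgeR's adjusted p alone, with a median log2 fold change of 0.24. None of 33 genes of lysosomal sorting and nutrient sensing was called, while 5 of them rose and 9 fell by edgeR's adjusted p alone. Of 6 cathepsin inhibitors, 1 was called higher (Cst7, 2.09), and of 11 osteoclast-type genes, the calcitonin receptor gene Calcr was called higher (5.75) and Ocstamp lower (-1.45). In these 2 lists 4 and 4 genes rose and 0 and 1 fell by edgeR's adjusted p alone, where 20.6% and 21.2% of all genes rose and fell. For all tested genes the shares called were 11.6% higher and 9.71% lower.

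The second comparison asked what defactinib changed in LPS-stimulated WT BMDMs, and it shares the WT LPS DMSO libraries with the first. Mitf fell, and many hydrolases were modestly higher. Mitf was the 1 lysosomal gene of 37 called, where 29.1% of all genes were called. By the adjusted p alone 17 of the 37 rose (28.4% of all genes did) and 6 fell (28.6%). Their median log2 fold change was 0.28, against 0.09 for all tested genes.

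Mitf was at 101, 74.2 and 117 CPM with defactinib, against 366, 355 and 403 CPM with DMSO. No library overlapped between the groups, and Mitf fell 3.85-fold (log2 -1.94 ± 0.28, edgeR adjusted p = 3.46e-05). Against unstimulated WT, at 92.2, 89.6 and 93.6 CPM, the libraries with LPS and defactinib lay on both sides, with a log2 difference of 0.09 ± 0.27 (adjusted p = 0.803). Tfeb remained low. It was at 5.88, 10.2 and 8.74 CPM with defactinib, 1 of these inside the DMSO range (0.47 ± 0.31, adjusted p = 0.206), and stayed 4.69-fold below unstimulated WT (-2.23 ± 0.31, adjusted p = 5.32e-05). Tfe3 was at 76.9, 80.9 and 85.7 CPM with defactinib, on both sides of the DMSO libraries. The summed level of the 3 MiT transcripts was 44.3 to 60.5 TPM, below both other WT groups.

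With defactinib in WT, 5 of the 8 cysteine proteases and 2 of the 3 other proteases rose, and 2 cysteine proteases fell. Ctss was at 2884, 3187 and 4354 CPM, all above the DMSO libraries, and rose by 0.48 ± 0.15 on the log2 scale (edgeR adjusted p = 0.0112), or by 0.30 (adjusted p = 0.0566) without replicate 3, the highest of them. Lgmn, an asparaginyl endopeptidase that processes other cathepsins, rose by 0.61 ± 0.13 (adjusted p = 0.00079). The aspartic protease Ctsd was at 2301, 2602 and 2518 CPM, above every DMSO and every unstimulated WT library, and rose by 0.63 ± 0.13 (adjusted p = 0.000824).

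Ctsl was one of the 2 cysteine proteases that fell with defactinib. It was at 192, 190 and 165 CPM with defactinib, below all DMSO libraries and above all unstimulated ones. It fell by 0.65 ± 0.13 on the log2 scale (edgeR adjusted p = 0.000499). Ctsc fell by 0.33 ± 0.09 (adjusted p = 0.00672). Both genes had risen with LPS, and both contrasts use the same WT LPS DMSO libraries.

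Among the glycosidases and lipid hydrolases 4 rose and 2 fell. Neu1, at 51.0, 45.3 and 50.7 CPM with DMSO, was at 73.6, 89.2 and 88.1 CPM with defactinib. Its groups did not overlap, and it rose by 0.77 ± 0.09 on the log2 scale (edgeR adjusted p = 6.68e-06), the largest rise of the 37. Gaa, which breaks down glycogen, rose by 0.65 ± 0.13 (adjusted p = 0.000669). Lipa was at 1081, 963 and 746 CPM with defactinib and fell by 0.35 ± 0.13 (adjusted p = 0.0374), which it lost in 8 alternatives (up to 0.321), among them leaving out replicate 2 or 3 of these libraries. Gla, an alpha-galactosidase that clears glycolipids, fell by 0.34 ± 0.09 (adjusted p = 0.0054).

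By the adjusted p all 4 cofactors and lipid carriers were higher, of which Npc2 rested on 1 library. Psap was at 17478, 18333 and 15762 CPM with defactinib, each above all other WT libraries, and rose by 0.50 ± 0.13 on the log2 scale (edgeR adjusted p = 0.00438). Npc2 was at 1138, 1148 and 2181 CPM, and its last library alone stood well above the DMSO range (0.48 ± 0.20, adjusted p = 0.0481). Without that library, replicate 3, Npc2 was at 0.11, and it lost its adjusted p in 18 alternatives (up to 0.435). Of the membrane proteins only Lamp1 passed the test, at 1154, 1226 and 1328 CPM with defactinib, all above the DMSO libraries (0.41 ± 0.13, adjusted p = 0.0134). Of the V-ATPase subunits, Atp6v0d2 rose (0.28 ± 0.10, adjusted p = 0.0208) and Atp6v1a fell (-0.42 ± 0.09, adjusted p = 0.000682). Atp6v0d1, at 319, 340 and 272 CPM, overlapped the DMSO libraries.

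The wider lists gave like counts for hydrolases. Of 39 other lysosomal hydrolases, 24 rose and 2 fell by edgeR's adjusted p alone, against 28.4% and 28.6% of all genes, with a median log2 fold change of 0.42. Called among them were Pla2g15 (1.47) and Sgsh (1.13), higher, and the hyaluronidase Hyal2 (-2.64) and Rnaset2b (-1.65), lower. Of 32 membrane proteins and transporters, 2 were called higher, Slc38a9 (1.30) and Slc36a1 (1.23), both amino acid transporters that act with mTORC1, and 3 lower, led by Cln3 (-2.63) and the cation channel Mcoln2 (-1.80). Counting edgeR's adjusted p alone, 13 of the 32 rose and 5 fell. Of 33 genes of sorting and nutrient sensing, Sumf1, which activates sulfatases, was called higher (1.02), and Vps18 (-2.21), the MiT family member Tfec (-1.82) and the Rag GTPase gene Rraga (-1.40) lower. Counting edgeR's adjusted p alone, 15 of the 33 rose and 9 fell. None of the 13 other V-ATPase genes tested and none of the 6 cathepsin inhibitors was called, though 3 and 1 of these rose and 4 and 1 fell by edgeR's adjusted p. Of 11 osteoclast-type genes, 3 were called lower, the transcription factor gene Nfatc1 (-2.50), Calcr (-2.23) and the RANK receptor gene Tnfrsf11a (-1.20). This list did not move 1 way, since 3 of its genes rose and 4 fell by edgeR's adjusted p alone, with a median log2 fold change of 0.30. For all tested genes, 10.4% were called higher and 18.6% lower.

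**Figure D3:**
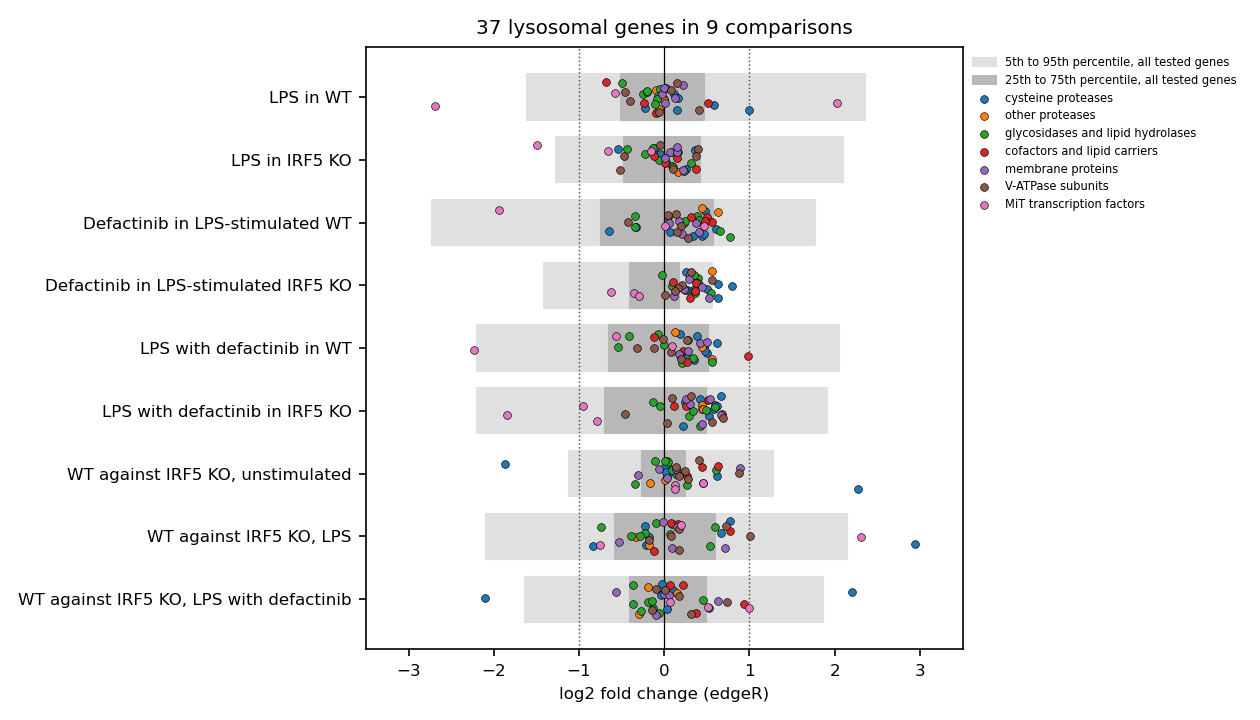
Log2 fold changes (edgeR) of the 37 lysosomal genes, coloured by group, in 9 comparisons, over grey bands for the 5th to 95th and 25th to 75th percentiles of all 15663 tested genes. Dotted lines mark a 2-fold change. Most points lie within 2-fold of no change, and the few outside are Tfeb, Mitf, Ctsk and Ctsl, with Atp6v0d2 just past the line at 1.01 in WT against IRF5 KO after LPS.

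The scaling of the libraries sets part of these counts. With library size alone in place of TMM, the median of all tested genes moved to -0.38 for LPS in WT and to 0.29 for defactinib in WT, and those of the lysosomal genes to -0.43 and 0.48. By edgeR's adjusted p, 2 lysosomal genes then rose and 28 fell with LPS (12.2% and 41.5% of all genes), and 28 rose and 2 fell with defactinib (39% and 22.8%). The rise of Ctsc with LPS (0.21, adjusted p = 0.0884) and its fall with defactinib (-0.13, adjusted p = 0.247) did not pass the test under that scaling. The directions of Tfeb and Mitf after LPS, and of Mitf with defactinib, were the same under both scalings.

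In IRF5 KO BMDMs, LPS lowered Tfeb, and Mitf did not pass the test for a rise. Tfeb was the 1 gene of 37 called, against 13.3% of all genes, and by the adjusted p alone 3 rose (18.5% of all genes did) and 6 fell (19%). Without replicate 3 of IRF5 KO LPS DMSO, 14 rose and 7 fell by edgeR's adjusted p, where 28% and 30.3% of all genes did. Tfeb was at 27.8, 25.9 and 31.6 CPM before and at 7.20, 5.62 and 17.4 CPM after LPS, replicate 3 being the highest of the latter. Its log2 fold change was -1.49 ± 0.31 (edgeR adjusted p = 0.00332), and -2.15 (adjusted p = 4.86e-08) without replicate 3. Without both of replicates 1 and 2 it was -0.70 (adjusted p = 0.109).

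Mitf was at 95.8, 67.3 and 90.0 CPM in unstimulated IRF5 KO and at 51.4, 51.0 and 125 CPM after LPS. Replicates 1 and 2 lay below every unstimulated library and replicate 3 above them. The log2 fold change was -0.16 ± 0.27 (edgeR adjusted p = 0.666) over all 3 and -0.72 (adjusted p = 0.000795) without replicate 3. Tfe3 was at 111, 106 and 114 CPM before and 54.7, 56.4 and 98.9 CPM after LPS (log2 -0.66 ± 0.16, adjusted p = 0.00731), with -0.99 (adjusted p = 6.66e-09) without replicate 3 and -0.14 (adjusted p = 0.526) without replicates 1 and 2. All 9 genes that passed in this comparison lost their adjusted p with only the groups compared in the fit. In that fit 1.43% of all genes rose and 0.113% fell, against 18.5% and 19% in the main fit.

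Whether LPS acted differently in WT and IRF5 KO was tested as an interaction, in which 2 of the 37 genes were called (9.83% of all genes) and 5 differed upwards and 0 downwards by the adjusted p alone (9.77% and 7.35% of all genes). Without replicate 3 of IRF5 KO LPS DMSO, 7 differed upwards and 11 downwards by the adjusted p alone (25.3% and 21.4% of all genes). The response of Mitf was higher in WT by 2.19 ± 0.38 on the log2 scale (edgeR adjusted p = 0.00174), by 2.75 (adjusted p = 2.31e-08) without replicate 3 of IRF5 KO LPS DMSO and by 1.45 (adjusted p = 0.00123) without replicates 1 and 2. That of Ctsl was higher in WT by 1.03 ± 0.18 (adjusted p = 0.00156), and by 1.00 without replicate 3 and 1.08 without replicates 1 and 2. For Tfeb the interaction was -1.20 ± 0.43 (adjusted p = 0.0655), with -0.55 (adjusted p = 0.0688) without replicate 3 and -2.01 (adjusted p = 0.000128) without replicates 1 and 2.

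With defactinib, IRF5 KO BMDMs showed no called lysosomal gene, where 0.919% of all genes were called. By edgeR's adjusted p alone 8 of the 37 rose (1.87% of all genes did) and 0 fell (1.49%), and the median log2 fold change was 0.32, against -0.04 for all genes. Without replicate 3 of IRF5 KO LPS DMSO, 9 rose and 0 fell (5.62% and 2.21% of all genes), with a median of 0.19. Those that rose were the cysteine proteases Ctsb, Ctsk, Ctsl and Ctss, the aspartic protease Ctsd, the hydrolases Gla and Lipa, and Atp6v0d2, by 0.39 to 0.80 on the log2 scale. All 8 lost their adjusted p with only the groups compared in the fit and on leaving out replicate 1 or 3 of the IRF5 KO libraries with defactinib, and all but Atp6v0d2 lost it without replicate 2 of that group. Of all genes, 0.106% rose and 0.00706% fell with only the groups compared in the fit. Leaving out replicates 1, 2 and 3 in turn, 0.212%, 0.418% and 0.218% of all genes rose and 0.081%, 0.143% and 0.0996% fell. The part that the nearness of DMSO replicates 1 and 2 to the defactinib libraries, given above, has in this comparison was not tested.

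Ctsd was at 1646, 1656 and 1215 CPM with DMSO and at 2230, 2345 and 2104 CPM with defactinib in IRF5 KO, and its groups did not overlap. It rose by 0.56 ± 0.13 on the log2 scale (edgeR adjusted p = 0.0347), and by 0.43 (adjusted p = 0.0303) without replicate 3 of the DMSO group. Psap was at 12949, 12983 and 8601 CPM with DMSO and at 14874, 14968 and 14483 CPM with defactinib, which were also without overlap, though replicate 3 widened the DMSO group and the test was not passed (0.36 ± 0.13, adjusted p = 0.12, and 0.19 without replicate 3). Lamp1 was at 1508, 1522 and 994 CPM with DMSO and at 1822, 1883 and 1764 CPM with defactinib (0.44 ± 0.13, adjusted p = 0.066, and 0.27 without replicate 3). Without replicates 1 and 2 the differences were 0.86 for Ctsd, 0.76 for Psap and 0.86 for Lamp1, each with an edgeR adjusted p of 0.000462 or less. Mitf, at 50.2, 45.4 and 51.2 CPM with defactinib, did not pass the test (-0.63 ± 0.27, adjusted p = 0.174), and its difference was -0.07 (adjusted p = 0.841) without replicate 3 and -1.37 (adjusted p = 2.16e-05) without replicates 1 and 2.

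The effect of defactinib differed between the genotypes for 9 lysosomal genes by edgeR's adjusted p, 2 of them upwards and 7 downwards (18.4% and 18.5% of all genes), and 2 of the 37 were called (22.8% of all genes). Mitf fell further in WT, by -1.31 ± 0.38 (adjusted p = 0.0134), or -1.88 (adjusted p = 9.96e-07) without replicate 3 of IRF5 KO LPS DMSO, and -0.56 (adjusted p = 0.0886) without replicates 1 and 2. Ctsl moved in opposite directions, falling in WT and rising in IRF5 KO, with an interaction of -1.28 ± 0.18 (adjusted p = 5.74e-05). Its rise in IRF5 KO lost edgeR's adjusted p in 4 alternatives (up to 0.102). Lipa (-0.90 ± 0.19, adjusted p = 0.00172) and Gla (-0.73 ± 0.13, adjusted p = 0.000455) had values of opposite sign too, although their changes within a genotype lost the adjusted p in some alternatives. Gaa (0.68 ± 0.19, adjusted p = 0.00939) and Neu1 (0.68 ± 0.13, adjusted p = 0.000849) rose in WT, and did not pass the test in IRF5 KO (-0.03 and 0.09). Without replicate 3 these interactions were -1.24 for Ctsl, -0.82 for Lipa, -0.76 for Gla, 0.84 for Gaa and 0.70 for Neu1, each with an edgeR adjusted p of 0.00104 or less. Without replicates 1 and 2, Gaa was at 0.32 (adjusted p = 0.154).

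The third question was how the genotypes differed before and after LPS. Unstimulated WT and IRF5 KO BMDMs differed most in a pair of related cysteine proteases, and in opposite directions. These were the 2 genes of 37 called, against 7.31% of all genes. By the adjusted p alone 10 were higher in WT (7.93% of all genes) and 1 lower (7.37%), with a median log2 difference of 0.14.

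Ctsk (chr3:95499256-95509362, plus strand), the collagen-degrading cathepsin best known from osteoclasts, was at 61.4, 60.8 and 70.1 CPM in unstimulated WT and at 15.4, 10.02 and 14.4 CPM in unstimulated IRF5 KO. All WT libraries were well above all IRF5 KO libraries. It was 4.83-fold higher in WT (log2 2.27 ± 0.16, edgeR adjusted p = 1.72e-07). After LPS it was at 62.1, 64.2 and 82.6 CPM in WT and at 8.58, 8.96 and 9.67 CPM in IRF5 KO, a 7.67-fold difference (2.94 ± 0.16, adjusted p = 8.16e-09, and 2.99 without replicate 3 of IRF5 KO LPS DMSO). With LPS and defactinib it was at 63.4, 81.4 and 73.2 CPM in WT and at 16.6, 14.8 and 15.8 CPM in IRF5 KO, a 4.61-fold difference (2.21 ± 0.16, adjusted p = 4.13e-08). In every condition the genotypes were apart, and within WT neither LPS (0.12 ± 0.15, adjusted p = 0.562) nor defactinib (0.06 ± 0.15, adjusted p = 0.738) gave a difference that passed the test.

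Ctsl (chr13:64363214-64370306, minus strand) was the reverse. It was at 148, 151 and 130 CPM in unstimulated WT and at 608, 428 and 524 CPM in unstimulated IRF5 KO, 3.64-fold lower in WT (log2 -1.86 ± 0.13, edgeR adjusted p = 1.9e-07). After LPS the libraries were still apart, at 333, 276 and 248 CPM in WT and 538, 504 and 483 CPM in IRF5 KO, but the difference was -0.83 ± 0.13 (adjusted p = 8.08e-05) and was not called. With LPS and defactinib they were at 192, 190 and 165 CPM in WT and at 781, 766 and 811 CPM in IRF5 KO, a 4.31-fold difference (-2.11 ± 0.13, adjusted p = 9.57e-09). The value after LPS was -0.87 without replicate 3 of IRF5 KO LPS DMSO.

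**Figure D4:**
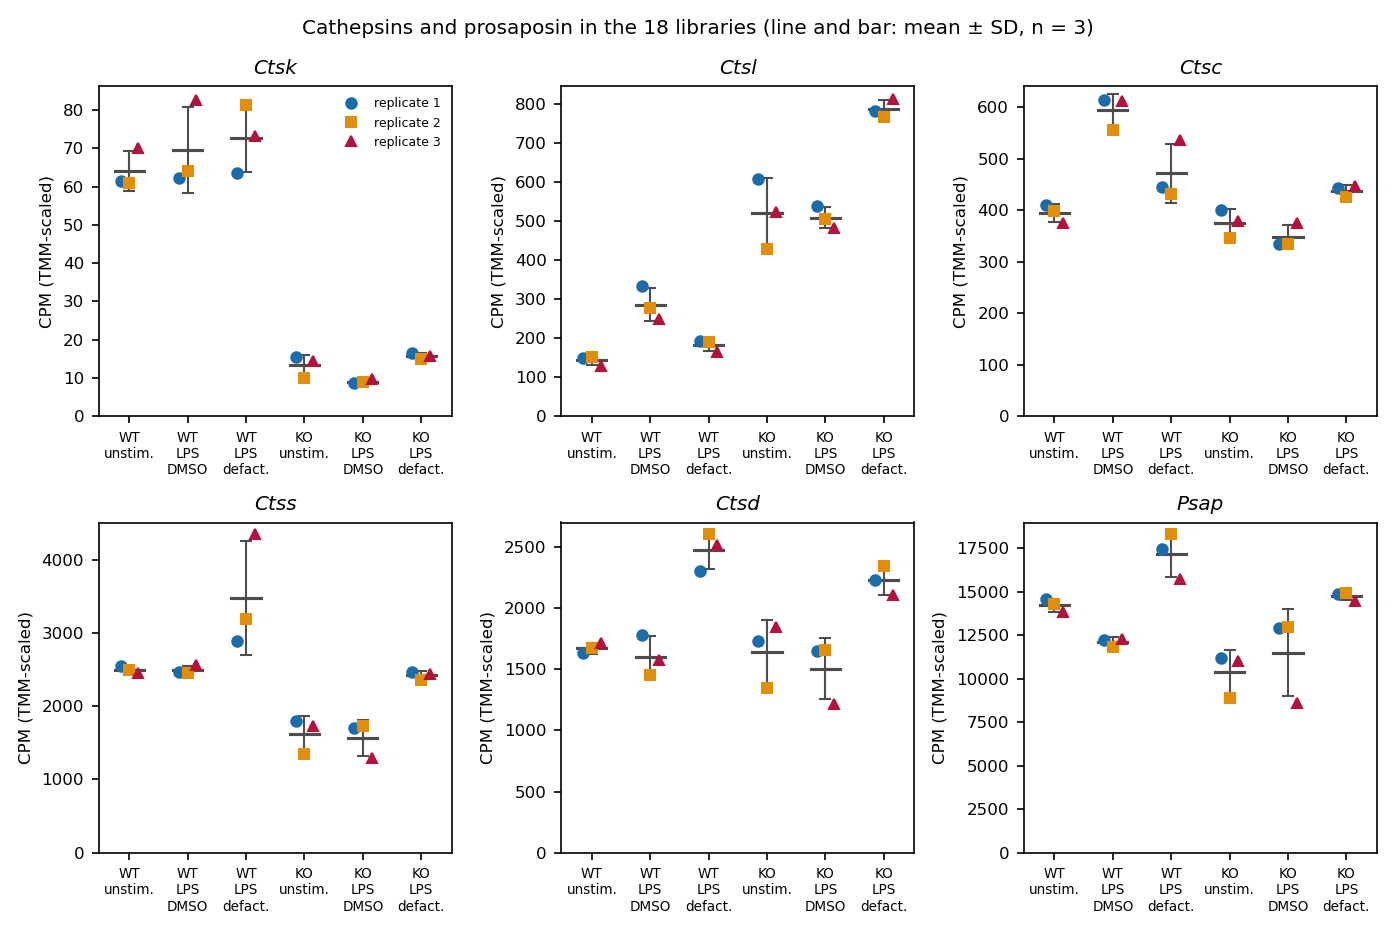
CPM of 5 cathepsins and Psap in every library, by group, on linear axes from 0. Points are libraries coloured by replicate number, and lines with bars give the mean ± SD of 3 libraries. Ctsk lies above 60 CPM in all WT libraries and below 17 CPM in all IRF5 KO libraries, Ctsl is lower in WT than in IRF5 KO in each condition, and Ctsd with defactinib lies at or above 2104 CPM in both genotypes.

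The other differences in unstimulated cells were under 2-fold. Higher in WT were Cd63 (0.89 ± 0.14, edgeR adjusted p = 0.000347), a tetraspanin of late endosomes, Atp6v0d2 (0.88 ± 0.10, adjusted p = 1.25e-05), Npc2 (0.63 ± 0.20, adjusted p = 0.0406), Ctss, Lipa, Psap, Npc1, Atp6v1h and Atp6v1a. Ctss was at 1795, 1341 and 1724 CPM in IRF5 KO, below all 3 WT libraries (0.62 ± 0.15, adjusted p = 0.00783). Lipa was at 988, 754 and 941 CPM in IRF5 KO, also below all WT libraries (0.60 ± 0.13, adjusted p = 0.00575), and Psap at 11209, 8896 and 11022 CPM (0.46 ± 0.13, adjusted p = 0.027). Psap lost its adjusted p on leaving out any 1 of the WT libraries or IRF5 KO replicate 2 (up to 0.136), Npc2 lost it in 14 alternatives, Npc1 and Atp6v1a in 8 each and Atp6v1h in 4. None of the 3 MiT factors passed the test in unstimulated cells, with differences between 0.12 and 0.45 and adjusted p of 0.385 or more. Lamp1, at 1211, 1021 and 1218 CPM in IRF5 KO, was above every WT library but missed the threshold (-0.31 ± 0.13, adjusted p = 0.124). Atp6v0d1, at 242, 224 and 236 CPM, and Ctsd, at 1734, 1349 and 1844 CPM, did not pass it either. Summed macrophage markers were also higher in unstimulated IRF5 KO, as given above, and their part in these differences was not tested.

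After LPS, 3 lysosomal genes of 37 were called higher in WT and 0 lower, where 25.8% of all genes were called. Besides Ctsk these were Mitf, 4.95-fold higher (log2 2.31 ± 0.28, edgeR adjusted p = 1.13e-05, with 2.87 without replicate 3 of IRF5 KO LPS DMSO and 1.57 without replicates 1 and 2), and Atp6v0d2, at 285, 274 and 339 CPM in WT and 151, 150 and 145 CPM in IRF5 KO (1.01 ± 0.10, adjusted p = 1.23e-06). The call of Atp6v0d2 rests on the 2-fold limit alone, since it was 0.99 without replicate 3 of IRF5 KO LPS DMSO and 0.76 with library size alone. By the adjusted p alone 10 genes were higher in WT (25.3% of all genes) and 5 lower (26.9%), and without replicate 3 these were 12 and 12 (33% and 32.4%). Lower in WT after LPS were Gaa (-0.75 ± 0.13, adjusted p = 0.000292), Lamp1 (-0.53 ± 0.13, adjusted p = 0.00327), Hexa, a hexosaminidase subunit that degrades gangliosides, Tpp1, a tripeptidyl peptidase, and Ctsl. Gaa was at -0.91 and Lamp1 at -0.70 without replicate 3. Without replicates 1 and 2, Gaa was at -0.37 (edgeR adjusted p = 0.0425), while Lamp1 (-0.11, adjusted p = 0.488) and Hexa (-0.01, adjusted p = 0.986) did not pass the test and Tpp1 changed sign (0.04, adjusted p = 0.787). This comparison uses the same 2 groups of LPS DMSO libraries as the comparisons of LPS and of defactinib above.

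Against unstimulated cells of the same genotype, Tfeb and Tfe3 were lower and several proteases higher after LPS with defactinib in both genotypes, while Mitf was lower in IRF5 KO (log2 -0.79, edgeR adjusted p = 0.0227, lost on leaving out 1 of 4 libraries in turn, up to 0.0773) and did not pass the test in WT. In WT, Tfeb was the 1 gene of 37 called (24.9% of all genes), and by the adjusted p alone 16 rose (25.9%) and 5 fell (27.4%). In IRF5 KO, Tfeb, at 7.42, 8.96 and 7.36 CPM, was again the 1 gene called (24% of all genes), 3.59-fold lower (log2 -1.85 ± 0.31, edgeR adjusted p = 0.000288), and 23 rose (25.4%) and 4 fell (28%). The 4 that fell were the 3 MiT factors and Atp6v1b2. Lamp1 rose in IRF5 KO by 0.66 ± 0.13 (adjusted p = 0.000692) and in WT by 0.42 ± 0.13 (adjusted p = 0.0132). These counts are scaling-dependent, since library size alone gave 3 that rose and 9 that fell in IRF5 KO (10.7% and 43.3% of all genes). Between the genotypes with LPS and defactinib, 2 genes were called, Ctsk and Ctsl (17.3% of all genes), with 10 higher (18.3%) and 4 lower (18%) in WT by the adjusted p alone. Mitf was 0.99 ± 0.27 higher in WT (adjusted p = 0.00945), just under the limit.

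Some of the counts are uncertain for their genes. Ctsd shares 808 exonic bases (34.4%) with the gene model Gm49369, and Atp6v0c 927 bases (27.4%) with an unnamed one, both of which had 0 counts, so pairs falling there may not have been assigned. Atp6v0c and Cd63 have processed copies that drew reads, Atp6v0c-ps2 with 106683 counts over the 18 libraries beside 139316 for Atp6v0c, and Cd63-ps with 213048. Levels of Atp6v0c and Cd63 are therefore uncertain.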

How the data were processed

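RNA-seq was measured in 18 libraries, 3 in each of 6 groups read from the labels. The deposited table holds unnormalized counts per gene of read pairs that mapped to 1 place. According to the methods and the table's header, the authors aligned reads to mm10 with STAR and counted exons with featureCounts 1.6.3, reverse stranded, so pairs shared by overlapping genes or copies were not counted. Counts were analysed with edgeR 4.0.16 in R 4.3.3: TMM, filterByExpr, a robust quasi-likelihood fit to the 18 libraries with a mean for each group, and two-sided F tests adjusted by Benjamini-Hochberg over 15663 genes. SE is the log2 fold change over the square root of F. TPM used the table's exon lengths. In a simulation of LPS in WT on 15209 genes, 67 genes were changed 2-fold, 67 3-fold and 66 4-fold. Of these, 64.2%, 88.1% and 98.5% passed the adjusted p alone in the right direction, as did 6 unchanged genes in either direction. The 2-fold limit was not applied there, and far fewer genes were changed than passed in the data, so these rates do not describe the calls. The 37 genes, the wider lists and the rule for named genes (called genes, the highest gene by TPM of each group, the MiT factors, and at most 3 called genes per direction and wider list for LPS and for defactinib in WT) were chosen with earlier results of these data known. Promoter sequences came from RefSeq (GRCm38.p6), and those of 7 genes were not analysed here. Alternatives were DESeq2 1.42.0, other scalings and filters, other fits and leaving out libraries. With 3 libraries a group, the spread between them limits the precision. Of the called genes of the wider lists that this rule names, 1 is not reported here. Reads were not analysed here.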

Additional observations from a re-analysis of the deposited data

Results flagged for a closer look

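The response to LPS differed between WT and IRF5 KO, by a test of the difference itself (the edgeR interaction, WT minus IRF5 KO, log2 scale, n = 3 libraries per group), for 5 lysosomal genes. Mitf differed by 2.19 (adjusted p = 0.00174), having risen in WT and not passed the test in IRF5 KO over all 3 libraries. The others were Ctsl at 1.03, Ctsc at 0.70, Ctsk at 0.67 and Atp6v1a at 0.45. Ctsk lost its adjusted p in 18 alternatives (up to 0.216) and Atp6v1a in 6 (up to 0.142), while Mitf, Ctsl and Ctsc kept theirs under all alternatives run. All 5 values were above 0, and without replicate 3 of IRF5 KO LPS DMSO 7 genes differed upwards and 11 downwards, where 25.3% and 21.4% of all genes did, so the number that differ depends on this library. Those that then differed downwards were led by Npc1 (-0.68), Gaa (-0.57) and Psap (-0.55).

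The effect of defactinib after LPS differed between the genotypes for 9 lysosomal genes. The values were -1.31 for Mitf, -1.28 for Ctsl, -0.90 for Lipa, -0.73 for Gla, -0.73 for Ctsk, -0.67 for Ctsc, -0.55 for Atp6v1a, 0.68 for Gaa and 0.68 for Neu1. Both interactions contain the LPS DMSO libraries of each genotype with opposite signs, so the 5 genes that appear in both, Mitf, Ctsl, Ctsk, Ctsc and Atp6v1a, with values above 0 in the first and below 0 in the second, are not independent results. Here Mitf lost its adjusted p in 2 alternatives, Ctsk in 3, and Ctsc, Gaa and Atp6v1a in 1 each.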

How the results depend on the processing

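No called gene reversed its direction under the alternatives run. Without the 2-fold limit the counts of lysosomal genes called were 11 for LPS in WT, 9 for LPS in IRF5 KO, 23 for defactinib in WT, 8 for defactinib in IRF5 KO, 21 and 27 for LPS with defactinib in WT and IRF5 KO, 11, 15 and 14 for the genotypes when unstimulated, after LPS and with LPS and defactinib, and 5 and 9 for the interactions with LPS and defactinib. With only the groups compared in the fit, LPS in IRF5 KO gave 0 calls (Tfeb -1.45, edgeR adjusted p = 0.104), LPS with defactinib in WT 2 and the interaction with LPS 1. In that fit, 1.43% of all genes rose and 0.113% fell by the adjusted p alone for LPS in IRF5 KO, against 18.5% and 19% in the main fit. These shares were 25.3% and 27.8% for LPS with defactinib in WT, and 10.1% upwards and 7.8% downwards for the interaction with LPS. DESeq2's size factors and DESeq2 itself each gave 2 for LPS with defactinib in WT. With library size alone, 3 genes were called for LPS with defactinib in IRF5 KO, 4 between the genotypes with LPS and defactinib, and 1 in each interaction (Ctsl 0.89 in the first; in the second Ctsl -0.95 and Mitf -0.95, adjusted p = 0.0757, no longer called, and Neu1 called at 1.00). Leaving out both replicates 1 and 2 of IRF5 KO LPS DMSO, chosen after seeing the data, left 1 library in that group, so its calls are not counted here. In that fit the log2 fold change of Tfeb with LPS in IRF5 KO was -0.70, against -1.49 in the main fit. That of Mitf between the genotypes after LPS was 1.57, against 2.31. Leaving out each library in turn gave 1 to 2 calls for LPS with defactinib in WT, 2 to 4 between the genotypes with LPS and defactinib (4 without WT LPS defactinib replicate 2) and 1 to 3 for the interaction with LPS (1 without WT unstimulated replicate 3, WT LPS DMSO replicate 1, IRF5 KO unstimulated replicate 1 or IRF5 KO LPS DMSO replicate 3). The cause of these moves was not tested. Without a fold limit Gusb, Man2b1, Lamp2 and Atp6v0c in LPS with defactinib in IRF5 KO changed sign with library size alone (-0.08, -0.02, -0.06 and -0.05), and Tpp1 between the genotypes after LPS without both replicates 1 and 2 of IRF5 KO LPS DMSO (0.04). Of the genes that passed by the adjusted p alone, those that lost it under at least 1 alternative were 3 of 11, 9 of 9, 10 of 23, 8 of 8, 8 of 21, 21 of 27, 5 of 11, 4 of 15, 5 of 14, 2 of 5 and 5 of 9 in the same order. Such losses were not counted over all tested genes, whose shares passing the adjusted p also moved between the alternatives, so these counts are not particular to the lysosomal genes. By the rule used, replicate numbers did not pair the libraries: over 45 pairs of same-numbered libraries of different groups the median correlation was 0.00455. A correlation above 0.1 was found in 4 pairs, of which 3 were those between the defactinib libraries of WT and the LPS DMSO libraries of IRF5 KO (0.150, 0.156 and 0.278). These 2 groups were not compared directly, but both enter the interaction of genotype and defactinib, with the same sign. The part of these correlations in that interaction was not tested beyond the replicate block. The replicate block changed no count of calls with the 2-fold limit, at 2, 1, 1, 0, 1, 1, 2, 3, 2, 2 and 2 in the order given. By the adjusted p alone it lost Ctsb, Ctss, Ctsd and Lipa for defactinib in IRF5 KO, Npc2 for LPS and for defactinib in WT and between the unstimulated genotypes, Ctsz for LPS in IRF5 KO, and Hexa and Gusb for LPS with defactinib in WT and IRF5 KO.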
